A study of Mus musculus with 9 samples.

Results

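Genes of the drug-metabolising enzyme families were followed in mouse kidney cortex in the fed state and after a fast. They are the genes named Cyp1, Cyp2 or Cyp3 with a subfamily letter, Cyp4b1, the flavin monooxygenases (Fmo), the carboxylesterases Ces1 and Ces2, the epoxide hydrolase Ephx1, the UDP-glucuronosyltransferases and their relatives (Ugt1, Ugt2, Ugt3) and the sulfotransferases Sult1 and Sult2. The choice was by gene name, made with earlier results of these data known, and took 121 of the 23420 genes in the table. The mice were C57/BL6 males kept on chow under a 12 h light and 12 h dark cycle. The fed group held 5 mice that ate freely, and the fasted group held 4 mice killed after 16 h without food. Each TruSeq library was made from RNA of about 50 mg of the cortex of 1 mouse. The labels name no batch, litter, pairing, age or hour of collection.

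These enzymes act in sequence on drugs, toxins, steroids and lipids. Cytochrome P450s and flavin monooxygenases add oxygen, carboxylesterases and epoxide hydrolases split esters and epoxides, and transferases then attach glucuronic acid or sulfate so that the product can be excreted. The liver is their best known site. The kidney's proximal tubule carries its own set, which in male mice includes enzymes under the control of androgen, and several members also act on the body's own fatty acids, vitamin D or catecholamines.

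Levels are normalized counts, that is reads divided by 1 size factor per library, and each group is summarised by its mean ± SD (5 fed mice, 4 fasted). Changes were taken as fasted over fed on the log2(normalized count + 1) scale with the standard error (SE). A gene is said to have risen or fallen where limma's Benjamini-Hochberg adjusted p over all 15098 genes tested was under 0.05, two-sided. The reads per library lay between 18902645 and 32469467. The ribosomal RNA entry Rn45s took 5.53% of the counts of Fed 3 and 2.36% of those of Fasted 1, against 0.513% to 1.38% in the other libraries. Of 19 marker lists of cell types, 7 had 0 members called. Among those, the lymphocyte list had 0 genes tested, and the adrenal cortex and red blood cell lists 1 each. Over all genes tested 5.72% were called higher and 5.25% lower. The early proximal tubule list had 2 of 8 members lower after fasting (Gatm and Slc34a1), with summed levels of 484338 to 698398 fed and 425801 to 495997 fasted. The late proximal tubule list had 1 of 8 higher (Slc5a10), at 88459 to 138006 fed and 96521 to 129166 fasted, and the androgen-responsive list had 2 of 9 lower (Odc1 and Timd2), at 282379 to 498089 fed and 283626 to 474306 fasted. The intercalated list had 2 of 5 lower (Foxi1 and Slc4a1), at 5705 to 6730.0 fed and 5323 to 5901 fasted. The fibroblast list had 2 of 5 higher (Dcn and Pdgfra) and 1 lower (Col1a1), at 5919.7 to 8082 fed and 6350.5 to 8645 fasted, and the adipocyte list 2 of 4 tested higher (Fabp4 and Plin1), at 1039 to 2446 fed and 995 to 1579.6 fasted. Endothelium had 1 higher (Pecam1) and 1 lower (Kdr), and the female-biased (Slc22a29), thick ascending limb (Ptger3), distal convoluted tubule (Trpm6) and inner medulla (Cldn4) lists had 1 called member each. Because the tissue was sequenced in bulk, fewer cells of a type and less RNA per cell cannot be told apart, and the part of these markers in the changes below was not tested.

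Of the 121 genes, 14 were at 0 in every library and another 27 had a mean under 10 normalized counts, which left 80 tested. The 14 genes at 0 were 5 of 8 Sult2, 4 of 9 Cyp3 and 2 of 51 Cyp2 genes and 1 each of Ces1, Sult1 and Ugt2. After the fast 19 of these 80 (23.75%) had changed, where 11% of all tested genes had. Of these 14 (17.5%) rose, against a background of 5.72% of genes higher, and 5 (6.25%) fell, a share near the background of 5.25% lower. The median change was 0.17 over the 80 genes and 0.0009 over all genes tested. All fasted libraries lay above all fed ones for 14 genes (background 7.62%) and below them for 3 (background 6.64%). Changes were moderate, from 0.35 to 2.02 in size on the log2 scale, and only Ugt1a9 passed 2-fold. Summed over all 121 genes, the level was 314280 ± 34094 fed and 327177 ± 17315 fasted, and the ranges of the groups overlapped.

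The count depended on the libraries, as did the number called over all genes, which was 1656 with all 9 libraries. Without Fed 3 and Fasted 1, 9 genes rose and 3 fell, with 1068 called over all genes. The calls lost were those of Ugt1a6b, Cyp2d9, Fmo2, Ugt1a9, Ugt1a1, Cyp2c44 and Cyp2u1. Leaving out Fasted 4 left 9 that rose, with 861 called over all genes. Leaving out Fed 1, Fasted 2 or Fasted 3 left 2 that fell, with 1004, 1185 and 1062 called over all genes. With the summed hepatocyte markers as a covariate, 0 genes rose and 1 fell, with 76 called over all genes. Apob, which is also made in kidney, gave 68.9% of that sum and was higher in every fasted library than in any fed one. With log2 Alb as the covariate in its place, 11 rose and 10 fell, and 13 of the 19 were still called. Over all genes 1168 were called in that fit. Called there but not without a covariate were Ces2g, Cyp1a2, Cyp2c29, Cyp2c70, Cyp2f2, Ugt2a3, Ugt2b37 and Ugt2b5.

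**Figure D1:**
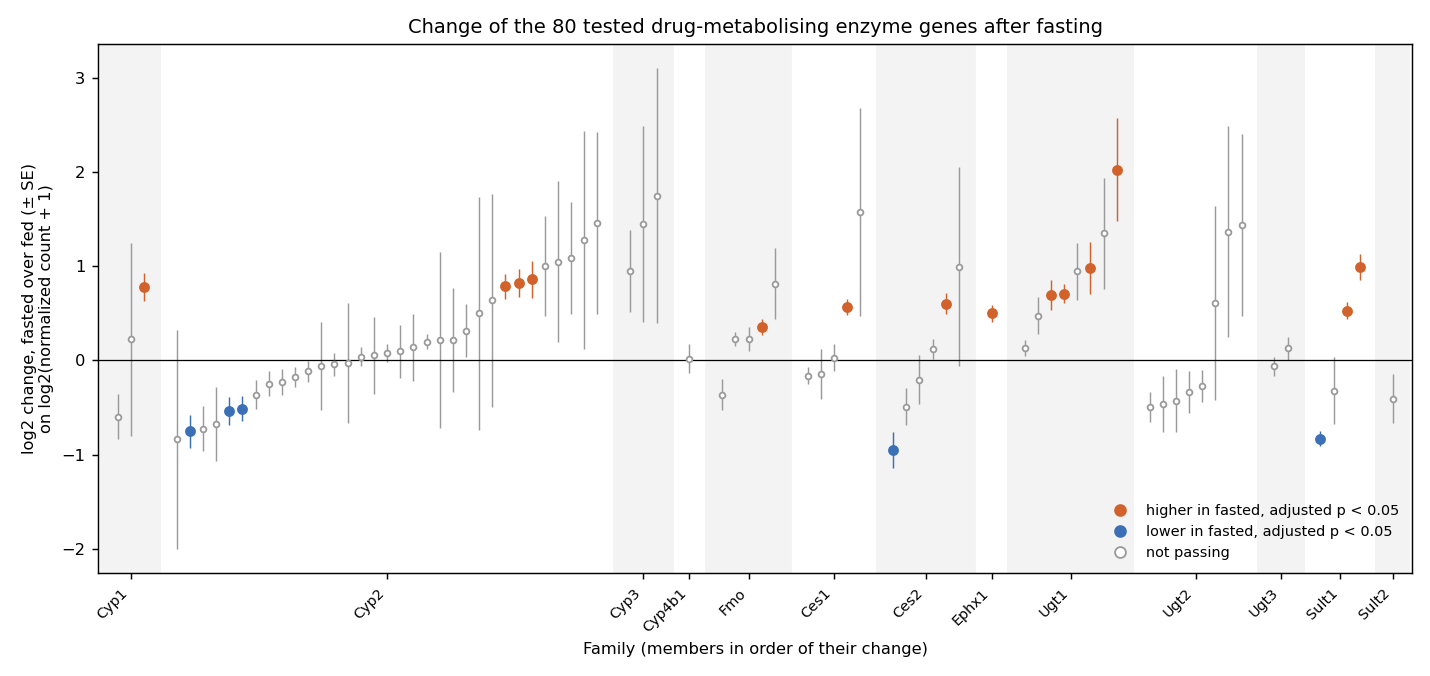
Log2 change (fasted over fed, on log2(normalized count + 1), ± SE) of the 80 tested genes, 1 point per gene, grouped by family and ordered by change within it. Filled points are the 14 genes that rose and the 5 that fell, open points did not pass, and the 8 Ugt1 genes all lie above 0 while the longest bars belong to genes that differed widely within groups, such as Cyp3a11.

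Levels per length show which enzymes make up the set in this tissue. Per kb of exon not shared with another coding gene, and averaged over the 9 libraries, Cyp4b1 was highest at 25495 normalized counts per kb. Cyp2j5, an arachidonic acid epoxygenase, followed at 17995, then Cyp2e1, which oxidises ethanol and acetone, at 12717. Sult1d1 stood at 11323 and Ugt3a2 at 11140. By normalized counts, 5 genes held 59.2% of the sum over all 121. Of the 5 named above only Sult1d1 passed the test of change. Cyp4b1, a P450 known to activate aromatic amines and furans, measured 57280 ± 10129 fed and 57812 ± 8231 fasted (log2 change 0.02, SE 0.15, limma adjusted p = 0.950).

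Among the oxidising enzymes 5 of 45 tested rose and 3 fell, with a median change of 0.20. Over all genes tested 5.72% were called higher and 5.25% lower, which is the background for each count by family below. The median includes genes of low level that followed Alb, described below. Their summed level was 197095 ± 20112 fed and 196034 ± 12853 fasted over all oxidising enzymes. Cyp1b1, which hydroxylates oestrogens and aromatic hydrocarbons (chromosome 17, 79701537 to 79715061, minus strand, GRCm38), read 1152, 1377, 1265, 796 and 1333 in Fed 1 to Fed 5 and 1962, 2009, 2286 and 1778 in Fasted 1 to Fasted 4. All fasted libraries were above all fed ones, and Fed 4 was the lowest. The log2 change was 0.78 (SE 0.15, limma adjusted p = 0.00782). Its relative Cyp1a1, the best known target of the aryl hydrocarbon receptor, was at 20.9 ± 4.16 fed and 13.5 ± 3.02 fasted and did not pass (log2 change -0.59, SE 0.24, limma adjusted p = 0.136).

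Cyp2 is the largest family, with 33 of 51 genes tested, 3 higher and 3 lower (background 5.72% and 5.25%). Within it the 2d subfamily had 2 risers among 8 tested. Cyp2d22 (chromosome 15, 82370527 to 82380260, minus strand) read 709, 879, 792, 663 and 1138 in the fed libraries and 1231, 1719, 1392 and 1490.3 in the fasted ones. The groups did not overlap, though Fed 5 came close to Fasted 1, and the log2 change was 0.82 (SE 0.15, limma adjusted p = 0.00677). Cyp2d9, a male-biased steroid 16-alpha-hydroxylase, read 3019.5, 3811, 3721, 3811 and 6358 fed and 6948, 9507, 5583 and 7608 fasted. Here Fed 5 lay above Fasted 3. The log2 change of 0.86 (SE 0.20, limma adjusted p = 0.0202) lost its call without Fasted 2 or without Fasted 4 (adjusted p = 0.0597 and 0.0603). Cyp2d9 also shares 21.8% of its 50-base words with other genes (6.76% with Cyp2d12, the largest single partner), so reads could be split between them. Cyp2d26, at 4107 ± 456 fed and 4222 ± 529 fasted, and Cyp2d12, at 1686 ± 199.6 fed and 1494 ± 175 fasted, did not pass. The summed 2d level ran from 9466 to 12540.3 in the fed group and from 12636 to 16202 in the fasted group.

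In the 2j subfamily, which includes the epoxygenase Cyp2j5 named above, 1 of 6 tested genes rose and 0 fell. Cyp2j9 (chromosome 4, 96568429 to 96591578, minus strand) read 542, 730.0, 631, 831 and 658 fed and 1013, 1465, 1059 and 1146 fasted, without overlap. It rose by 0.79 (SE 0.13, limma adjusted p = 0.00486). Cyp2j13, in the same chromosome 4 cluster, read 9847, 9010.5, 8773, 8309.9 and 5003 fed and 4951, 5832, 6519 and 2905 fasted. The low Fed 5 placed that mouse among the fasted ones, and the change of -0.72 (SE 0.24) did not pass in limma (adjusted p = 0.0804). Cyp2j5 was at 45221 ± 7861 fed and 38417 ± 4499 fasted, and its change of -0.22 (SE 0.14) did not pass (limma adjusted p = 0.331). By summed level the subfamily ranged from 45421 to 73123 fed and from 45263 to 56922 fasted, so the groups overlapped.

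The 3 P450s that fell belong to the 2r, 2c and 2u subfamilies. Cyp2r1, the vitamin D 25-hydroxylase (chromosome 7, 114549682 to 114562972, minus strand), read 80.4, 70.0, 67.1, 53.7 and 64.7 fed and 49.3, 33.4, 32.6 and 43.6 fasted. All fasted libraries lay below all fed ones, with a log2 change of -0.75 (SE 0.18, limma adjusted p = 0.0208). Cyp2c44, an epoxygenase of the collecting duct, measured 663 ± 83.5 fed and 469 ± 88.4 fasted (-0.51, SE 0.14, limma adjusted p = 0.0358), with Fasted 1 at 548 just above Fed 2 at 546. Cyp2u1, a fatty acid hydroxylase, measured 355 ± 63.0 fed and 243 ± 30.3 fasted (-0.54, SE 0.15, limma adjusted p = 0.0382), and Fed 4 lay within the fasted range. These calls were lost when any 1 of several libraries was left out, though the direction of change was kept. Cyp2r1 lost its call without Fed 1, Fasted 2 or Fasted 3 (adjusted p 0.0554 to 0.0604), Cyp2c44 without any of Fed 1, Fed 3, Fed 4, Fed 5, Fasted 2 and Fasted 3 (0.0544 to 0.0922), and Cyp2u1 without any library other than Fed 4 (0.0512 to 0.121). All 3 also lost it with the Alb covariate.

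Cyp2e1 and the 2a enzymes were abundant and did not pass. Cyp2e1 measured 27603 ± 1131 fed and 27241 ± 5928 fasted, with Fasted 2 as the highest library at 35788. The spread of Cyp2a5, a coumarin hydroxylase, was wide within both groups, from 1677 to 5051 fed and from 1967 to 5502 fasted. Its neighbour Cyp2a4, a steroid 15-alpha-hydroxylase that shares 36.1% of its 50-base words with Cyp2a5, measured 6496 ± 926 fed and 5968 ± 550.4 fasted. In the 2b subfamily Cyp2b10, the classic target of the receptor CAR, ran from 4.30 to 58.0 fed and from 4.45 to 152 fasted, so any shift was within the spread.

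The flavin monooxygenases, which oxidise nitrogen and sulfur centres, had 1 of 5 tested genes higher. Fmo2 (chromosome 1, 162874317 to 162898726, minus strand) read 12104, 12328, 11197, 14569 and 13202 fed and 16589.5, 14723, 17339 and 16025 fasted. The groups were separate by a narrow margin between Fed 4 and Fasted 2. The log2 change of 0.35 (SE 0.09, limma adjusted p = 0.0247) was the smallest among the called genes, and leaving out any of Fed 1, Fed 2, Fasted 1, Fasted 3 and Fasted 4 ended the call (adjusted p 0.0564 to 0.0737), as did the Alb covariate. Fmo1 was at 10676 ± 860.2 fed and 12470.4 ± 451 fasted, also without overlap, and missed the threshold (0.23, SE 0.07, limma adjusted p = 0.0686). Fmo5 pointed the other way, at 2329 ± 526 fed and 1797 ± 307 fasted (-0.36, SE 0.16, limma adjusted p = 0.179).

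Hydrolases were next, with 3 of 12 tested higher and 1 lower (background 5.72% and 5.25%). Ces1d, a carboxylesterase that also hydrolyses triglyceride (chromosome 8, 93166068 to 93197838, minus strand), read 6829, 7899, 6719, 8251 and 7152 fed and 11321, 10253, 11805 and 10239 fasted. No fed library reached the lowest fasted one. The log2 change was 0.57 (SE 0.08, limma adjusted p = 0.00172). Ces1f, its more abundant relative in the same cluster, measured 13962 ± 2747 fed and 14099 ± 1681 fasted and did not pass (0.03, SE 0.14, limma adjusted p = 0.923).

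Within the Ces2 cluster of chromosome 8 a pair of genes moved in opposite directions. Ces2c, an acylcarnitine hydrolase (104847068 to 104854483, plus strand), read 2079, 2318, 1527, 2148 and 1954 fed and 2708, 3172, 3096 and 3120.1 fasted. It rose by 0.60 (SE 0.11, limma adjusted p = 0.00651), without overlap. It shares 36.1% of its 50-base words with other genes, most with the pseudogene Ces2d-ps, so part of its counts is uncertain. Ces2h (105000853 to 105021178, plus strand) read 98.2, 83.8, 92.1, 82.7 and 69.6 fed and 48.4, 60.4, 36.4 and 32.9 fasted. It was low throughout, all fasted libraries lay below the fed ones, and the change was -0.95 (SE 0.19, limma adjusted p = 0.0104). Ephx1, the microsomal epoxide hydrolase (chromosome 1, 180976210 to 181020904, minus strand), measured 713 ± 44.4 fed and 1015 ± 134 fasted. It rose by 0.50 (SE 0.09, limma adjusted p = 0.00594), and its fasted libraries read 964, 923, 957 and 1214, the last standing apart.

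**Figure D2:**
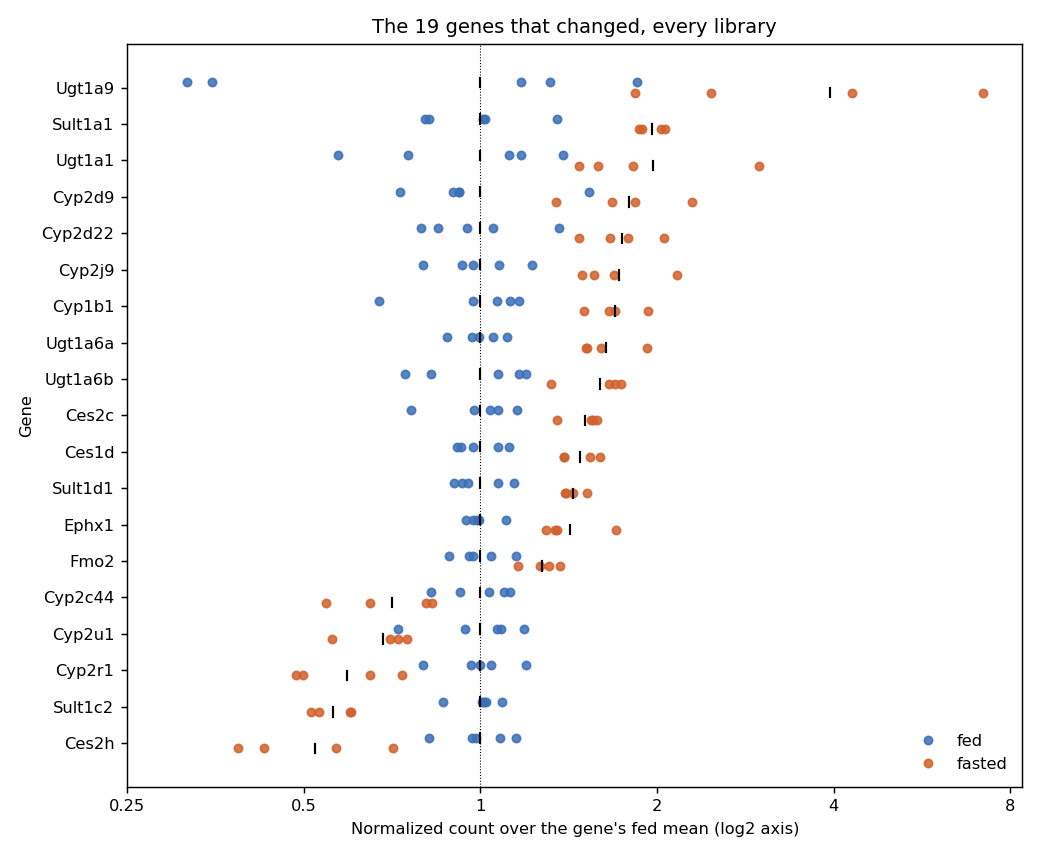
Normalized count of each of the 19 changed genes in every library, divided by that gene's fed mean, on a log2 axis, with fed libraries in blue, fasted ones in orange and group means as black bars. The groups are separate for 15 of the 19 and overlap for Ugt1a9, Cyp2d9, Cyp2c44 and Cyp2u1.

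Conjugating enzymes had 6 of 23 tested genes higher and 1 lower (background 5.72% and 5.25%). The Ugt1 locus on chromosome 1 makes several enzymes from separate first exons, each with its own promoter, that are joined to a common set of later exons. All 8 Ugt1 genes in the table were tested, 4 rose, and all 8 changes were positive, with a median of 0.83. Because the later exons are common, between 39.4% and 49.7% of each gene model's exon bases were unshared, and how the authors' counting dealt with reads in the common part is not given in the sources used here. The Ugt1 values are therefore not independent of each other.

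Ugt1a6a, which conjugates simple phenols (88134809 to 88218997, plus strand), read 216, 235, 196, 248 and 222 fed and 339, 359, 338 and 429 fasted. The fasted libraries were all higher, and the change was 0.71 (SE 0.10, limma adjusted p = 0.00185). Its close copy Ugt1a6b (88103252 to 88219003, plus strand) measured 171 ± 34.8 fed and 273 ± 32.4 fasted (0.69, SE 0.16, limma adjusted p = 0.0183). Since 79.8% of the 50-base words of Ugt1a6b occur elsewhere, mostly in Ugt1a6a, these 2 may not be separable, and the Ugt1a6b call was lost without Fasted 1, Fasted 2 or Fasted 4 (adjusted p 0.0510 to 0.0618).

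Ugt1a9 (88070800 to 88218997, plus strand) read 5.95, 22.1, 6.58, 24.7 and 34.8 fed and 46.5, 81.0, 34.5 and 135 fasted. This was the largest change among the called genes, at 2.02 (SE 0.55, limma adjusted p = 0.0375), from the lowest level, and Fed 5 lay just above Fasted 3. Ugt1a1, the bilirubin glucuronosyltransferase (88211959 to 88218997, plus strand), read 43.9, 90.2, 57.9, 85.9 and 106 fed and 122, 113, 140.0 and 229 fasted, a change of 0.98 (SE 0.28, limma adjusted p = 0.0450). Both calls were lost when any 1 of several libraries was left out, though the direction of change was kept. That of Ugt1a9 was lost without Fed 1, Fed 2, Fed 3, Fasted 1, Fasted 2 or Fasted 4 (adjusted p 0.0519 to 0.121), and that of Ugt1a1 without any library other than Fed 5 (0.0560 to 0.137). Both were also lost with the Alb covariate.

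The other Ugt1 genes did not pass. Ugt1a2 read 106 ± 38.9 fed and 202 ± 80.6 fasted (0.94, SE 0.30, limma adjusted p = 0.0709). Ugt1a10 spread widely, from 75.9 to 388 fed and from 129 to 967 fasted, with Fed 5 and Fasted 4 the highest of their groups. Ugt1a7c was the most counted, at 6405 ± 639.6 fed and 7018 ± 638 fasted (0.13, SE 0.09, limma adjusted p = 0.358). Its gene model runs 998 bases past the end of every other Ugt1 model here, so reads from that stretch overlap no other Ugt1 model. Whether those reads came from Ugt1a7c transcripts alone was not tested, so its level may include other transcripts of the locus. Fed 5 and Fasted 4 were the highest of their groups for Ugt1a1, Ugt1a9 and Ugt1a10.

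**Figure D3:**
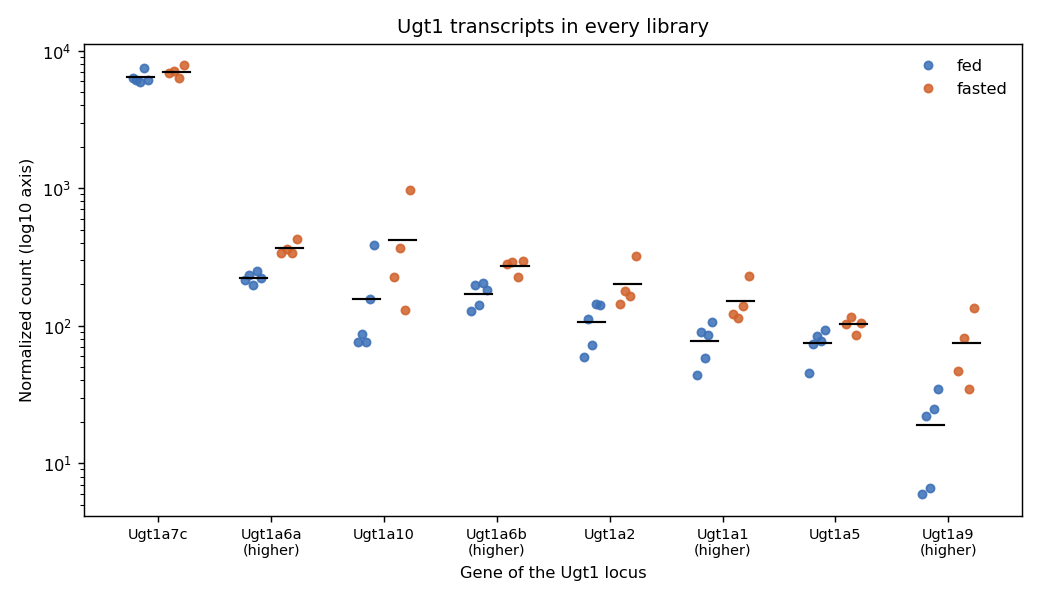
Normalized counts of the 8 Ugt1 genes in every library on a log10 axis, ordered by mean level, with fed libraries in blue, fasted ones in orange and black bars at the group means. The fasted mean is above the fed mean for each gene, and Ugt1a7c stands apart at 5893 to 7803.

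The promoters of the locus are shown because each first exon has its own. The letters are the 250 bases before the RefSeq start on GRCm38.p6, plus strand, and capitals mark GTTAAT or its reverse complement, a short form of the binding motif of HNF1, a factor of liver and proximal tubule. Windows are chr1:88211709-88211958 for Ugt1a1, chr1:88134559-88134808 for Ugt1a6a, chr1:88070529-88070778 for Ugt1a9, chr1:88055161-88055410 for Ugt1a10 and chr1:88094751-88095000 for Ugt1a7c.
Ugt1a1: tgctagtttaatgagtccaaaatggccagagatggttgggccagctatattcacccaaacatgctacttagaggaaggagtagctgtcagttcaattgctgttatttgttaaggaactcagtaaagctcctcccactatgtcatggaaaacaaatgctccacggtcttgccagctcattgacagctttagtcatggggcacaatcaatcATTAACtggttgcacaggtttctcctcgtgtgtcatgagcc
Ugt1a6a: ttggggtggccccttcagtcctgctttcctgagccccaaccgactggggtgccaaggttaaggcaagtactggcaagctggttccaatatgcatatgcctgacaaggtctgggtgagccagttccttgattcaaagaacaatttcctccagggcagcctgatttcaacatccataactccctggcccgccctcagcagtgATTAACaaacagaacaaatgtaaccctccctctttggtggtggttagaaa
Ugt1a9: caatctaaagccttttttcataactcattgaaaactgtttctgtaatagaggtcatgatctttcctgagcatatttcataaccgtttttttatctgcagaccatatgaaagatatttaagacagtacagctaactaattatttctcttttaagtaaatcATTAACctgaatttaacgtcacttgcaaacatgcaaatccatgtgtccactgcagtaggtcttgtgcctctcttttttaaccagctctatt
Ugt1a10: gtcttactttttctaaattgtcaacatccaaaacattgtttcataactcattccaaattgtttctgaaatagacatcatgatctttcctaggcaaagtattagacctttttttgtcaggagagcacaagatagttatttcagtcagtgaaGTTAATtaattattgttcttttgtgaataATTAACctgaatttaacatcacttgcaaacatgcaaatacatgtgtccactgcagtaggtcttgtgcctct
Ugt1a7c: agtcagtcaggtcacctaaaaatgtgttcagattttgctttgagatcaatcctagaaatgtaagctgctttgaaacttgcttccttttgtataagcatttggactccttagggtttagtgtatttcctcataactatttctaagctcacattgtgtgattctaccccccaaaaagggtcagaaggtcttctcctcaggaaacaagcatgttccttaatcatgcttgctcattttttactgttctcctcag
The short HNF1 motif began 41 bases before the start in Ugt1a1, 50 in Ugt1a6a and 91 in Ugt1a9, which all rose, and at 100 and 71 in Ugt1a10, which did not pass. It was not in the windows of Ugt1a7c, Ugt1a2 and Ugt1a5.

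These letters were 1 of 9 motifs searched on both strands, with the letters chosen by textbook consensus. GTTAAT was in 6.43% of all 32851 promoter windows of this length, in 5 of the 11 genes that rose and had a window in the RefSeq table (Sult1a1, Sult1d1, Ugt1a1, Ugt1a6a and Ugt1a9), in 0 of 3 that fell and in 8 of 52 that did not pass. The full HNF1 palindrome (one spaced base between a pair of such short forms), which contains it, was in 0.00913% of windows and in no gene of the set with a window. The aryl hydrocarbon receptor core GCGTG was in 28.2% of windows and in 3 risers (Cyp1b1, Cyp2j9 and Sult1d1), 0 that fell and 7 that did not pass. The motif GTAAACA of FoxO factors was in 3.17% of windows and in 1, 0 and 6 genes of those groups, and the nuclear receptor direct repeat DR1 in 0.338% and in 1, 0 and 1. The rest were in no gene that changed: the E-box CACGTG (6.02% of windows, 1 gene that did not pass), the D-box TTATGTAA (0.819%, 4 genes), the antioxidant element TGACNNNGC (10.2%, 0 genes) and the glucocorticoid response element (0.387%, 1 gene). A gene was counted if any of its windows matched, while the background counts single windows, so these shares are not strictly alike. Of the risers with GTTAAT, Ugt1a1, Ugt1a6a and Ugt1a9 lie in the same locus, as does Ugt1a10, which held 2 matches and did not pass. Whether any share differs from the background was not tested. A match gives the letters only and is no evidence of binding.

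Ugt2 and Ugt3 genes did not pass. Of 8 tested Ugt2 genes 0 changed, with a median of -0.30 and 5 changes below 0. Ugt2b38, the most abundant, measured 12435 ± 3058 fed and 9859 ± 2618 fasted (-0.34, SE 0.22, limma adjusted p = 0.372). Ugt2b37 read 2058, 3049, 2186, 2736 and 1581 fed against 1565, 1743, 1570.0 and 1573 fasted, and only the low Fed 5 fell in the fasted range (-0.49, SE 0.16, limma adjusted p = 0.0719). Ugt3a2, which uses sugars other than glucuronic acid, was at 33338 ± 5425 fed and 36076 ± 2051 fasted, and Ugt3a1 at 5503 ± 529.8 fed and 5293 ± 758 fasted.

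Sulfotransferases gave the 2 smallest adjusted p-values of the set, in opposite directions. Sult1c2 (chromosome 17, 53829637 to 53846339, minus strand) read 3762, 3827, 3231, 3795 and 4069 fed and 1982, 2248, 2243 and 1919.7 fasted. The lowest fed library was well above the highest fasted one. It fell by 0.83 on the log2 scale (SE 0.08, limma adjusted p = 0.000208). Sult1a1, which sulfates phenols (chromosome 7, 126672865 to 126676432, minus strand), read 341, 564, 425, 336 and 422 fed and 787, 861, 847 and 778 fasted. It rose by 0.99 (SE 0.14, limma adjusted p = 0.00142), about 1.99-fold, without overlap. Sult1d1, a sulfotransferase of catecholamines (chromosome 5, 87554645 to 87569027, minus strand), read 26608, 24964, 21044, 22221 and 21719.8 fed and 35396, 32488, 33531 and 32621 fasted. It rose by 0.53 (SE 0.09, limma adjusted p = 0.00395), and no fed library reached the fasted range. Sult1b1, at 248 ± 139 fed and 178 ± 41.0 fasted, did not pass, and in Sult2 only Sult2b1 was tested and did not pass.

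The promoters of 1 riser and the gene that fell are shown for comparison, as 250 bases before the RefSeq start on GRCm38.p6, minus strand, capitals as above: chr5:87569007-87569256 for Sult1d1 and chr17:53845959-53846208 for Sult1c2.
Sult1d1: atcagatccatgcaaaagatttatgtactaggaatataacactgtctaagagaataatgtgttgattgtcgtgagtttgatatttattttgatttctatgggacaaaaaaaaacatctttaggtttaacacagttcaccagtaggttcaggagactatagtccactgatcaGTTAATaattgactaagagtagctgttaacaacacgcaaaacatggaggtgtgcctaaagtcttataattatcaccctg
Sult1c2: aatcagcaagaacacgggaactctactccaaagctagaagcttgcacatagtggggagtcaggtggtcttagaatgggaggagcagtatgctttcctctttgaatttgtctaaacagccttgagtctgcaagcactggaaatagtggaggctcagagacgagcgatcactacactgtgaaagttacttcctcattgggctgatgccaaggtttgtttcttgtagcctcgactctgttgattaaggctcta
The short HNF1 motif began 79 bases before the Sult1d1 start, and the Sult1c2 window held 0 matches.

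A different pattern was seen in members of low level that are best known from liver. Alb, the gene of serum albumin, ran from 251 in Fed 1 and 402 in Fed 5 to 10091 in Fed 2, with fasted libraries at 3623, 1848, 7186 and 7396. Among the 80 tested genes the log2 level was set against log2 Alb over the 9 libraries, and 15 passed with both Pearson's r and Spearman's rho (exact permutation tests, Benjamini-Hochberg over the 80), all of them positive and 0 of them changed by fasting in limma. Their r lay between 0.860 and 0.990, and between 0.791 and 0.986 without Fed 1 and Fed 5, the libraries farthest from the median of Alb. Cyp3a11, the main liver P450 of its subfamily and the highest of the 15, read 4.47, 941, 266, 213 and 7.96 fed and 271, 96.4, 449.8 and 364 fasted. Its r was 0.988 (exact permutation p = 1.10e-05, adjusted 0.000353) and its rho 0.967 (exact permutation p = 0.000165, adjusted 0.00189). Ces1c, a secreted plasma carboxylesterase, read 2.23, 268, 109, 87.0 and 9.95 fed and 102, 48.8, 189 and 189 fasted. For both genes Fed 1 and Fed 5 were lowest and Fed 2 highest, so the range within the fed group exceeded the difference between the group means. All 3 tested Cyp3 genes were among the 15, with a median log2 change of 1.45 that did not pass for any of them. Fed 1 and Fed 5 were the lowest libraries for each. Without the log scale the groups were close for Cyp3a11 and for the Cyp3 sum, less so for Cyp3a25 and Cyp3a13. Cyp3a11 had means of 286 fed and 295 fasted, and the summed Cyp3 level was 363 ± 468 fed and 407 ± 198 fasted. Cyp3a25 had means of 49.6 fed and 65.3 fasted, and Cyp3a13 of 22.7 fed and 40.4 fasted. Of the 18 hepatocyte markers, none at 0 in every library, 2 rose (Apoc3 and Fga), with a list median of 1.18 and summed levels of 34211 to 58376 fed and 50353 to 60794 fasted. The source of this RNA was not tested.

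**Figure D4:**
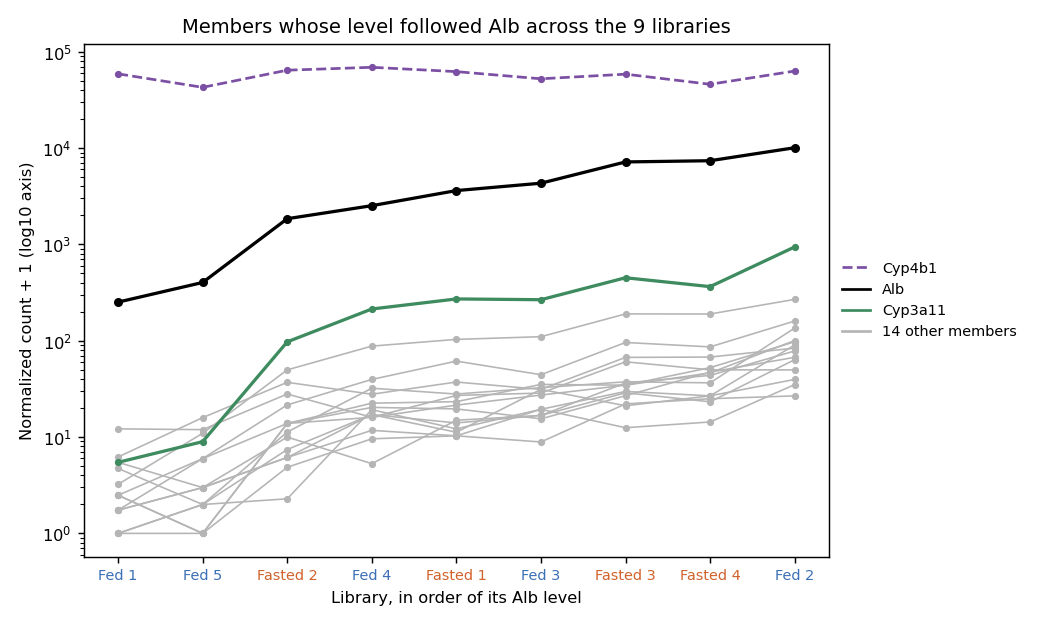
Normalized count + 1 on a log10 axis in each of the 9 libraries, ordered by Alb (black), for Cyp3a11 (green), the other 14 genes whose level followed Alb (grey) and, for contrast, Cyp4b1 (purple, dashed). Library names are blue for fed and orange for fasted, and the 15 genes broadly climb with Alb from Fed 1 to Fed 2 while Cyp4b1 stays between 42742 and 69047.

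Partners and regulators of these enzymes were counted from lists of 90 other genes, of which 87 were tested and 73 did not pass. Of the 87, 9 rose (10.3%, background 5.72%) and 5 fell (5.75%, near the background of 5.25%). Ugdh, which makes the UDP-glucuronic acid that Ugt enzymes use, read 2519, 2666, 3136, 3262 and 3702 fed and 3773, 4856, 3967 and 5481 fasted. It rose by 0.56 (SE 0.13, limma adjusted p = 0.0227), and its groups met without overlapping at Fed 5 and Fasted 1. Slc26a1, a sulfate carrier of the basolateral membrane, measured 4948 ± 735 fed and 2774 ± 112 fasted and fell by 0.82 (SE 0.10, limma adjusted p = 0.000774). Papss2, which makes the activated sulfate that Sult enzymes use, did not pass at 12301 ± 1582 fed and 11099 ± 1657 fasted. In the electron transfer list Cyb5b, the outer mitochondrial cytochrome b5, fell from 16125 ± 2152 to 11857 ± 295 (-0.43, SE 0.10, limma adjusted p = 0.0211). Por, the reductase that serves microsomal P450s, was at 6856 ± 892 fed and 6685 ± 1005 fasted (limma adjusted p = 0.866). Of 10 tested genes of deconjugation and other hydrolysis, Ephx2, the soluble epoxide hydrolase that opens fatty acid epoxides, rose by 0.57 (SE 0.11, limma adjusted p = 0.00819) and Arsb, a lysosomal sulfatase, fell by 0.58 (SE 0.16, limma adjusted p = 0.0358). Of 38 other conjugating and oxidising enzymes 4 rose (Gstt2, Hnmt, Maob and Mgst1) and 2 fell (Akr1c21 and Keg1).

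In the list of the aryl hydrocarbon receptor axis 1 of 4 tested genes was called. This was Nqo1, a quinone reductase and target of that receptor and of NRF2, and not itself a regulator. It rose from 1999 ± 546 to 3956 ± 787 (1.0, SE 0.18, limma adjusted p = 0.00651). The receptor gene Ahr itself measured 417 ± 55.2 fed and 473 ± 32.5 fasted and did not pass. Nr1i2, which codes for the pregnane X receptor, rose from 223 ± 25.6 to 328 ± 70.8 (0.53, SE 0.14, limma adjusted p = 0.0367), and Nr1h4, the bile acid receptor gene, from 3594 ± 474 to 4917 ± 541 (0.46, SE 0.10, limma adjusted p = 0.0190). Nr1i3, which codes for CAR, was at 26.5 ± 13.2 fed and 63.6 ± 11.3 fasted and missed the threshold (1.42, SE 0.42, limma adjusted p = 0.0539), as did Ppara at 5420.0 ± 1346 and 7609 ± 931 (0.51, SE 0.15, limma adjusted p = 0.0554). Hnf4a was at 23707 ± 727 fed and 22345 ± 1243 fasted and did not pass. Of the 4 PAR bZIP genes, clock output factors known to drive Cyp2 genes in liver, 0 changed. Dbp among them ran from 83.4 to 1802 fed and from 68.8 to 518 fasted, and the groups overlapped.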

How the data were processed

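The kidney cortex of 9 mice, 5 fed and 4 fasted, was sequenced as RNA with 1 library per mouse per the labels, which do not say whether the mice came from separate cages or litters. FastQC, TopHat2 2.0.9, HTSeq 0.9.1 and DESeq2 (given as 3.5) are named per the submitters' processing notes, with the builds mm10 and hg19. The annotation and mode used for counting are not given in the sources used here. In the deposited signal each library's reads stand divided by that library's size factor: all 161194 values above 0 were whole multiples of their library's step within 0.01 reads, which gave the reads back. The log2 fold changes, the score (fold change over its standard error), the p-values and the adjusted p-values in the deposited table are the authors' own. Of the 77 genes of the set with an adjusted p in the authors' deposited table, 16 were higher and 7 lower at an adjusted p under 0.05. All 19 of limma's calls were among them. Over all 14772 genes with an adjusted p there, 16.0% were called, against 11.0% in limma.

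The test was limma 3.58.1 with a trend in R 4.3.3 on log2(value + 1), over genes whose mean reached 10 normalized counts, with no pairing. It was tested on simulated data. Within groups, libraries differed by more than counting error (chi-square over degrees of freedom from 16.7 to 117, highest in pairs with Fed 3). The p-values set the group difference against this spread between libraries, which limma moderates over genes. With 1 library per mouse, spread between mice and spread from handling cannot be told apart. The genes named were those called, the 2 highest of each family and Cyp2 subfamily, those with an adjusted p from 0.05 to 0.10, called partners and regulators with their defining genes, and members with a library far from its group. All called genes are described, and the others in part by counts and ranges. Members and lists were chosen with earlier results of these data known. edgeR 4.0.16 and DESeq2 1.42.0 on the recovered reads, the covariates and the fit without Fed 3 and Fasted 1 were added after seeing the data. The covariate of summed hepatocyte markers was run first and summarised only by counts of calls, and Alb was added as a covariate after its result was seen. Ensembl identifiers gave positions on GRCm38 in GENCODE M21 for 120 of 121 genes, and promoters are from RefSeq. The authors' annotation tables were not used here, and 0 sample columns were left unused.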

Additional observations from a re-analysis of the deposited data

Results flagged for a closer look

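Of 160 groups (80 genes, fed and fasted), 8 had a library far from the others of its group by Dixon's criterion, which chance meets in about 1 of 20 groups. In the fed group these were Fed 4 for Ces1g (383) and Ugt1a7c (7517), both above the other 4 fed libraries, and Fed 5 for Cyp2j13 (5003), below them. In the fasted group they were Fasted 1 for Ces2c (2708, the lowest), Fasted 2 for Cyp2a4 (6789.7) and Ugt2b37 (1743), both the highest, Fasted 3 for Ugt1a6b (225, the lowest) and Fasted 4 for Ephx1 (1214, the highest). The flags were spread over 6 of the 9 libraries. Ces2c and Ephx1 kept their calls when any single library was left out.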

How the results depend on the processing

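Of 24 alternatives, 19 were planned and 5 were added after seeing the data. Values per gene were kept for all of them but the hepatocyte marker covariate, which was summarised by counts only. In that fit 0 of the set were called higher and 1 lower. What follows thus leaves out the alternative that ended most of the calls. In the others, called genes kept their direction where tested. There 10 of the 19 calls were kept throughout: Sult1c2, Sult1a1, Ces1d, Ugt1a6a, Sult1d1, Cyp2j9, Ephx1, Ces2c, Cyp2d22 and Cyp1b1. edgeR called the same 19, and DESeq2 added Cyp2j13, Fmo1, Ugt1a2 and Ugt2b37. Leaving out 1 library at a time gave 861 (without Fasted 4) to 1959 changed genes against 1656, 9 to 16 of the set higher against 14, and 2 to 7 lower against 5. At an adjusted p under 0.01 there were 538 changed genes, 9 higher and 1 lower, and under 0.10 there were 2628. Quality weights per library gave 2798 changed genes, and the fit without a trend left 3 of the set lower and ended the calls of Cyp2c44, Cyp2u1, Ugt1a9 and Ugt1a1. Without Fed 3 and Fasted 1 there were 1068 changed genes, 9 higher and 3 lower. The hepatocyte marker covariate left 76 changed genes, 0 higher and 1 lower. The Alb covariate left 1168 changed genes, 11 higher and 10 lower. The cause of these shifts was not tested. No paired analysis was possible because the labels give the groups no common replicate numbers.

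Alternatives for single genes, without the hepatocyte marker covariate, were summarised for the 45 named of the 80 tested. Among these, signs on the log2 scale turned only in genes that had not passed in the limma fit used for the calls above. The Alb covariate gave -0.014 for Ces1f, -1.25 for Cyp1a2, -1.27 for Cyp2c29, -0.036 for Cyp2d26, -0.22 for Cyp3a11, -0.045 for Cyp3a25 and -0.018 for Cyp4b1. Of these, Cyp1a2 and Cyp2c29 were called lower in that fit, so their turned signs came with a call. For Cyp1a2, Cyp2b9 and Cyp2c29, edgeR gave -0.80, -0.11 and -1.04 and DESeq2 -0.85, -0.11 and -1.06. A pseudocount of 5 gave -0.068 for Cyp1a2. Quality weights gave -0.060 for Ces1f, -0.51 for Cyp2b10, 0.32 for Cyp2t4 and -0.085 for Cyp4b1. Without Fed 3 and Fasted 1 the values were -0.037 for Ces1f, -0.20 for Cyp2b9, -0.023 for Cyp2d26, 0.011 for Cyp2e1, 0.23 for Cyp2t4 and -0.046 for Cyp4b1. Leaving out 1 library at a time gave ranges across 0 of -0.065 to 0.12 for Ces1f, -0.47 to 0.95 for Cyp1a2, -0.097 to 0.40 for Cyp2a5, -0.70 to 0.90 for Cyp2b10, -0.23 to 0.27 for Cyp2b9, -0.30 to 1.36 for Cyp2c29, -0.025 to 0.11 for Cyp2d26, -0.18 to 0.045 for Cyp2e1, -0.37 to 0.31 for Cyp2t4, -0.080 to 0.13 for Cyp4b1 and -0.13 to 0.032 for Ugt3a1. Of the tested genes 32 had a mean under 100 normalized counts, and for these the spread between libraries limits what could be detected.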
